A study of Mus musculus with 6 samples.

Results

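The members are CpGs inside the coding exons of mouse autosomal genes, lying over 5 kb from any transcription start. A CpG was kept when it had at least 10 reads, summed over the 2 replicates, in each of 3 pluripotent cell types. This gave 49042 CpGs, which is 4.57% of the 1073684 autosomal CpGs that reached the read requirement and 28.4% of the 172749 autosomal coding CpGs among them. They fall in 5640 genes, and 1478 genes hold 10 or more of them. A gene has a median of 5 members, and the median member lies 13264 bp from the nearest start. Starts are those of the basic annotation; 19945 members (40.7%) lie within 5 kb of a start in the comprehensive annotation, and the other 29097 averaged 38.3% for mESCs, 51.9% for C-iPSCs and 61.3% for 4F-iPSCs, close to the values of all members below.

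The libraries come from chemical iPSCs (C-iPSCs), made from OG2 mouse embryonic fibroblasts with a small-molecule cocktail, from 4-factor iPSCs (4F-iPSCs), made from OG2 fibroblasts with retroviral Oct4, Sox2, Klf4 and c-Myc, and from E14 mouse embryonic stem cells (mESCs). All lines are male and were grown in LIF with CHIR99021 and PD0325901, the inhibitor pair known as 2i. The sample records describe feeder layers removed on gelatin before collection, whereas the publication describes gelatin-coated plates. The mESCs were at later passage than either iPSC type and have another origin, so passage, strain and reprogramming cannot be told apart in any comparison with mESCs.

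Methylation within the body of a gene is the common state of mammalian coding sequence outside CpG islands, and it is laid down by the de novo methyltransferases and kept by Dnmt1. In mouse pluripotent cells the 2i inhibitors lower it across the genome, because they reduce the activity of the de novo enzymes and of the Uhrf1 and Dnmt1 maintenance step. Coding exons far from a start therefore show how much gene-body methylation a line holds, apart from the protected promoter.

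The sequences below show what such exons look like at the extremes named later, in the GRCm38/mm10 assembly, each read along the coding strand of its gene. Capital CG letters mark the member CpGs, and everything else is in small letters, including CpGs of the exon without enough reads. Zfp11 (minus strand, chr5:129657520-129657719) is the most methylated gene, and Ankrd24 (plus strand, chr10:81643328-81643527) the least. Camta1 (minus strand, chr4:151145277-151145476) and Pdlim3 (plus strand, chr8:45913697-45913896) differ most between C-iPSCs and mESCs, and Socs5 (plus strand, chr17:87134653-87134852) between 4F-iPSCs and C-iPSCs. Ston2 (minus strand, chr12:91647508-91647707) lies furthest the other way. The 2 Ryr1 windows (minus strand, chr7:29019777-29019976 and chr7:29005495-29005651) are exons of 1 gene with opposite states.

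Zfp11: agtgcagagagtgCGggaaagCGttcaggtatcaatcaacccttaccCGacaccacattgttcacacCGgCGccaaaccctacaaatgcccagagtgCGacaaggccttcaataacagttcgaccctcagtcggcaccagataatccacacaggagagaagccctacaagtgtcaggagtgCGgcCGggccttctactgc

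Ankrd24: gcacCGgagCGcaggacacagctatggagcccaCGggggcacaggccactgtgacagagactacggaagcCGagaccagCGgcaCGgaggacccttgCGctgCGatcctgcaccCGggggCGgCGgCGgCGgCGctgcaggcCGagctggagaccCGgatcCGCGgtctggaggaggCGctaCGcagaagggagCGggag

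Camta1: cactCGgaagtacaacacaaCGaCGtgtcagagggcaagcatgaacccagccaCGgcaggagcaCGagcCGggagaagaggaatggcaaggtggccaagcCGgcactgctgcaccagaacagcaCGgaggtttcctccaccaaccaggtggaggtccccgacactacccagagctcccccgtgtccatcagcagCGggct

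Pdlim3: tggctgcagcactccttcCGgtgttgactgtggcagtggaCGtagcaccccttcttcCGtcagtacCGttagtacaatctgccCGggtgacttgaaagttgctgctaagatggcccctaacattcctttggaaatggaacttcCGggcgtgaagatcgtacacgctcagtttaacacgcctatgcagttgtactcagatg

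Socs5: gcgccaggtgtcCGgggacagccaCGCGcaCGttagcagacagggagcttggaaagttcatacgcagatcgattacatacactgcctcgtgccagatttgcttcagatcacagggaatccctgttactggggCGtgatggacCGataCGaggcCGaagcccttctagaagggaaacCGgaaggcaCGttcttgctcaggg

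Ston2: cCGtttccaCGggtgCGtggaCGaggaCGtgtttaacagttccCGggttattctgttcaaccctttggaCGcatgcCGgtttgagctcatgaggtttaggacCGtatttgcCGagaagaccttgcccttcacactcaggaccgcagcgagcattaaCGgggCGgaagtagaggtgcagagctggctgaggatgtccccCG

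Ryr1 low exon: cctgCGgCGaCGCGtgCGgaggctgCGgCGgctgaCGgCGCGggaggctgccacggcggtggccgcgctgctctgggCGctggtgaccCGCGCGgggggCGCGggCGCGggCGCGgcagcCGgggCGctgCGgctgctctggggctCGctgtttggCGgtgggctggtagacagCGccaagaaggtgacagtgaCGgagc

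Ryr1 high exon: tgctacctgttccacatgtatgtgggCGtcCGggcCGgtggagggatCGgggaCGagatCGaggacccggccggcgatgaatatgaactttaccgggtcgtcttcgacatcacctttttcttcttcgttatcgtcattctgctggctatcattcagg

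Members were read deeply in most genes, though exons of Asap3, Camta1, Dnah11, Myh14, Pank4, Ryr1, Sptbn4 and Svil lack a value in 1 or more libraries, and the Ankrd24 members have a median of 6 reads in C-iPSC replicate 2. The median member carried 59 and 42 reads in the mESC libraries, 71 and 66 reads for C-iPSCs, and 76 and 74 reads for 4F-iPSCs. The shallowest library, mESC replicate 2, held 53694199 reads over all CpGs against 96534037 in the deepest, 4F-iPSC replicate 1.

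Promoters of the pluripotency genes Nanog (3.95% for mESCs, 9.35% for C-iPSCs and 11.8% for 4F-iPSCs) and Zfp42 (5.43%, 6.94% and 11.2%) were low in all 3 cell types, as were those of the fibroblast genes Thy1 and Twist2. These markers fit pluripotent cells but do not separate the 3 labels from each other. Nothing in the records says that replicates are separate cultures, so they may be technical, and the p-values of permutation, sign-flip and limma measure only the spread between samples. The sign-flip test counts the 6 libraries as separate, although they come from 3 cell types. Fisher's exact p for single CpGs pools the reads of replicates, so it covers read counting and no spread between samples.

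Coding exons were least methylated in mESCs, intermediate in C-iPSCs and most methylated in 4F-iPSCs, and no library of 1 cell type overlapped another. The mESC libraries averaged 35.8% and 40.8% (mean 38.3%, SD 3.51 points), the C-iPSC libraries 47.8% and 55.5% (51.7%, SD 5.42) and the 4F-iPSC libraries 60.8% and 61.3% (61.05%, SD 0.375). C-iPSCs stood 13.3 points above mESCs, 4F-iPSCs 22.7 points above mESCs, and 4F-iPSCs 9.39 points above C-iPSCs (5.56 without C-iPSC replicate 1). With 2 libraries against 2, the exact permutation p is 0.33 for each of these, which is also the smallest value it can take.

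The 3 cell types differ in the shape of the distribution as well as the mean. In mESCs most coding CpGs are partly methylated and hardly any are full, while in 4F-iPSCs the largest class is full methylation. Members at 80% or more made up 3.21% and 6.21% of the measured CpGs in the mESC libraries, 16.1% and 31.8% for C-iPSCs, and 45.2% and 45% for 4F-iPSCs. The share below 30% moved far less, from 39.6% of members in mESCs to 29.8% in C-iPSCs and 24.7% in 4F-iPSCs with replicates summed. Below 10% in every cell type were 6658 members (13.6%, in 775 genes), and 1577 members in 1049 genes were at 80% or more in every one. Members below 10% in each single cell type were not counted.

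**Figure D1:**
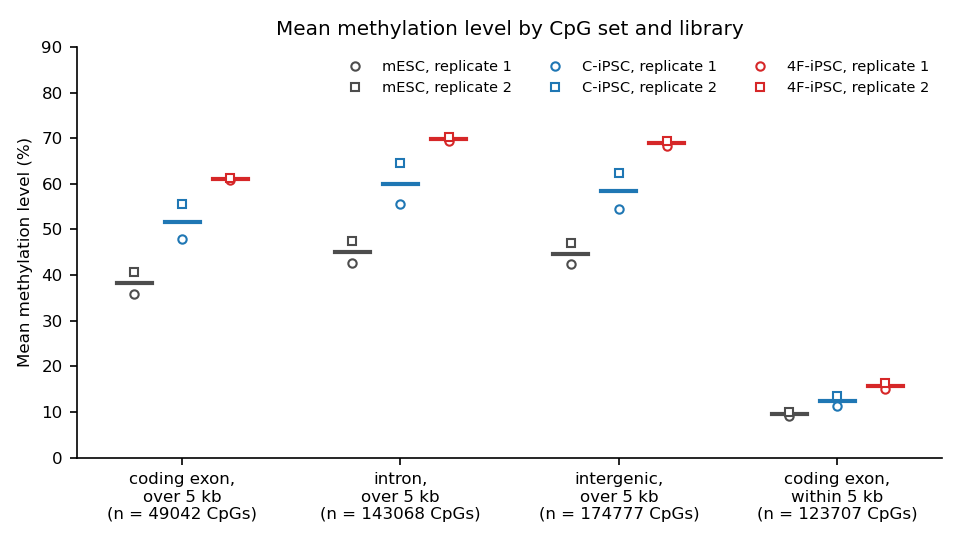
Mean methylation level (y axis, %) of 4 sets of CpGs (x axis) in each of the 6 libraries, with a bar at the mean of each cell type. Members go from 38.3% in mESCs to 61.05% in 4F-iPSCs, while coding CpGs within 5 kb of a start stay at 9.61% to 15.6%.

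Coding exons near a start have low mean levels in all 3 cell types, and they are also much denser in CpGs than the members. Coding CpGs within 5 kb averaged 9.61% for mESCs, 12.4% for C-iPSCs and 15.6% for 4F-iPSCs. Members exceeded them by 37.8 points on average over libraries, and by 10.4 points within classes of CpG density. Near a start, the CpGs with over 30 CpGs in 500 bp (74.3% of that set) averaged 2.63%, 2.88% and 3.86%. Those with 11 to 15 averaged 41.6%, 57.6% and 68.9%. Levels also rose across the 5 kb border itself, in every cell type. Coding CpGs at 4 to 5 kb averaged 28.4%, 38.6% and 46.6% in mESCs, C-iPSCs and 4F-iPSCs, and members at 5 to 6 kb 32.8%, 44.6% and 53.0%. Levels kept climbing with distance, to 44.7%, 59.6% and 69.9% in members over 50 kb away.

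CpG density separates members more strongly than distance does. Members with at most 5 CpGs in the surrounding 500 bp averaged 56.8% for mESCs, 72.9% for C-iPSCs and 83.9% for 4F-iPSCs. Members with over 30 CpGs averaged 7.22%, 8.56% and 12.5%. The drop is gentle up to 20 CpGs in 500 bp, where 4F-iPSCs still held 68.7%, then steep. Across members, the Spearman correlation of density with level was -0.553 and -0.565 in the mESC libraries, -0.592 and -0.601 for C-iPSCs, and -0.577 and -0.582 for 4F-iPSCs, as a description of CpGs that are neighbours within exons.

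**Figure D2:**
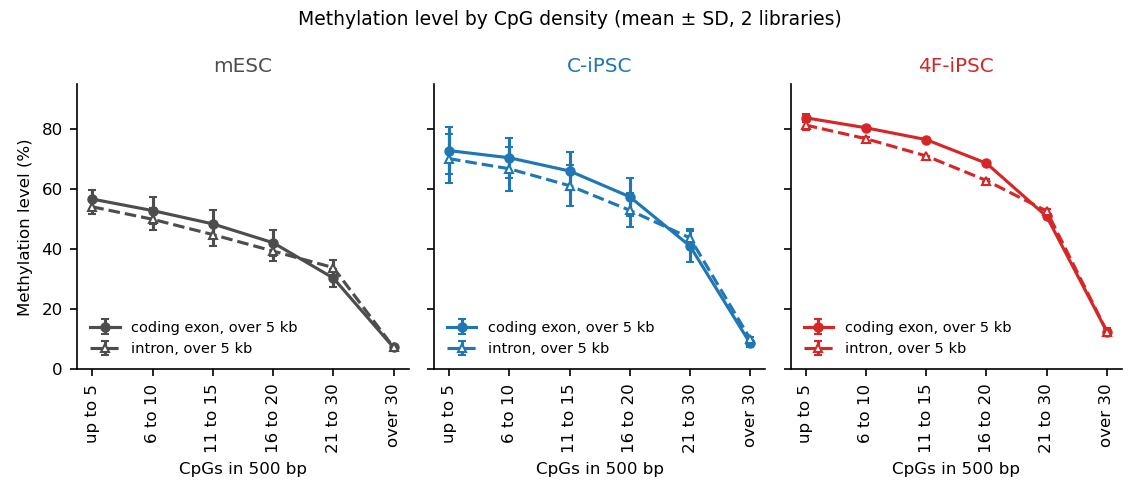
Methylation level (y axis, %, mean and SD of 2 libraries) by number of CpGs in 500 bp (x axis) for members (solid) and introns over 5 kb from a start (dashed), 1 panel per cell type. In 4F-iPSCs members go from 83.9% in the sparsest class to 12.5% in the densest.

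The differences from mESCs sit in sparse and moderately dense exons. 4F-iPSCs exceeded mESCs by 27.1 points in the sparsest class and by 28.1 points at 11 to 15 CpGs, but by only 5.25 points above 30 CpGs. C-iPSCs exceeded mESCs by 17.7 points at 11 to 15 CpGs and by 1.34 points above 30. Strong calls of 4F-iPSCs over C-iPSCs, by the rule given below, went from 1.26% of members in the sparsest class to 2.45% at 21 to 30 CpGs. This gradient is not particular to members, since introns over 5 kb from a start went from 2.24% to 3.29%. Above 30 CpGs the share of members was 2.32%, but 0.515% without the members of Zfp316, a gene left out after the values were seen. Introns had 0.632% there. Of the 7945 members in the densest class, which lie in 380 genes, 4924 were below 10% in all 3 cell types. At the other end, only 105 of the 9100 members with at most 10 CpGs in 500 bp were that low everywhere. Some of these dense exons hold starts of the comprehensive annotation.

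Introns of the same kind carry more methylation than the members when taken as they come, while the comparison at equal density depends on the class. Members minus introns came to -6.85 and -6.65 points in the mESC libraries, -7.70 and -9.09 for C-iPSCs, and -8.65 and -8.96 for 4F-iPSCs, with a mean of -7.98 points (exact sign-flip p 0.03125 over 6 libraries, the smallest possible). Within classes of CpG density the difference turned to 2.27 points in favour of coding exons, positive in 6 of 6 libraries with the same exact p. Members lay above introns in the classes up to 20 CpGs and below them at 21 to 30 (30.4% against 33.9% in mESCs) and, mostly by little, above 30 (8.56% against 10.0% in C-iPSCs). Within genes that hold 10 or more CpGs of both kinds, members stayed lower on average, with a mean of -2.38 points (exact sign-flip p 0.03125). Many single genes went the other way. Of 860 such genes, members exceeded introns in 391 for mESCs, 400 for C-iPSCs and 424 for 4F-iPSCs. Median gene differences were small, at -1.14, -0.848 and -0.300 points in that order of cell types. Intergenic CpGs averaged 44.7%, 58.4% and 68.9%, and within density classes members differed from them by a mean of 0.0232 points (exact sign-flip p 0.969), with both mESC libraries negative (-1.35 and -0.528), both 4F-iPSC libraries positive (0.774 and 0.397) and the C-iPSC libraries split (-0.184 and 1.03).

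Exon rank matters little once density is taken into account, whereas distance from the start still counts, from 36.1% at 5 to 10 kb to 42.1% over 50 kb in mESCs at equal density. Internal coding exons averaged 42.2% in mESCs and last coding exons 28.7%, but at equal density the mESC averages were 38.9% for internal and 37.8% for last exons. CpGs at the first codon position, which are the CGN arginine codons, averaged 42.8%, 56.8% and 66.4% in mESCs, C-iPSCs and 4F-iPSCs. Those at the third position averaged 34.9%, 48.0% and 57.5%, and in mESCs the order held at equal density with 40.4% against 36.4%. Short exons of up to 150 bp were more methylated in mESCs (45.6%) than exons over 1 kb (31.7%), and at equal density this order turned, with 36.1% against 41.4%.

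Among genes with 10 or more members, the most methylated have exons of ordinary CpG density, with medians of 12 to 16.5 CpGs in 500 bp. Gene medians were 40.7% for mESCs, 57.1% for C-iPSCs and 70.2% for 4F-iPSCs. No gene reached 80% in mESCs, but 87 C-iPSC and 488 4F-iPSC gene levels did. The 5 highest by the mean of the 3 cell types are Zfp11, a zinc finger gene, Pank4, of the pantothenate kinase family, Svil, which encodes the actin-binding protein supervillin, Lama1, a laminin chain of basement membrane, and Agrn, the agrin of neuromuscular junctions. Zfp11 stood at 78.0% and 80.9% in the mESC libraries, 86.9% and 91.0% for C-iPSCs and 93.9% and 95.6% for 4F-iPSCs over 19 CpGs. Pank4 stood at 75.2% and 83.0%, 86.8% and 89.6%, and 95.1% and 94.6%. Svil had the widest replicate gap, with 64.6% and 82.6% in mESCs, 85.0% in both C-iPSC libraries and 95.2% and 94.6% in 4F-iPSCs. These genes are high in every line, and Agrn is the lowest of them in mESCs. Lama1 gave 70.7% and 76.98% for mESCs, 81.8% and 91.4% for C-iPSCs, and 89.6% and 90.1% for 4F-iPSCs. Agrn gave 59.8% and 72.3%, 87.4% and 89.8%, and 93.1% and 93.8%. All members of Pank4, Svil and Agrn lie within 5 kb of a start in the comprehensive annotation, as do those of Pdlim3, Ccs and Vangl2 named below.

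The least methylated genes hold exonic CpG islands and are bare in all 6 libraries. Ankrd24, an ankyrin repeat gene, ranged from 0.582% in mESC replicate 1 to 2.65% in C-iPSC replicate 2 over 51 CpGs. Msl3l2, a relative of the dosage-compensation gene Msl3, ranged from 0.660% to 2.30%, and Prr7, a gene of postsynaptic membrane, from 0.983% to 2.02%. Prdm12, needed for pain-sensing neurons, averaged 1.13% for mESCs, 1.54% for C-iPSCs and 1.69% for 4F-iPSCs. The zinc finger gene Zfp771 averaged 1.41%, 1.41% and 1.68% over 104 CpGs, and libraries of different cell types lay within a few points of each other in all 5 genes. All members of Ankrd24 and Msl3l2 lie within 5 kb of a start in the comprehensive annotation, and none of Prr7, Prdm12 and Zfp771.

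Not every gene with dense exons is bare. Of 218 genes with at least 10 members in the densest class, 166 were below 10% in mESCs on those CpGs, and only Fat1, Zc3h13 and Kif26a, picked out after the values were seen, reached 50% there. The dense CpGs of Fat1, a giant cadherin, averaged 76.5% for mESCs, 90.9% for C-iPSCs and 94.7% for 4F-iPSCs. Zc3h13, part of the RNA adenosine methylation complex, averaged 62.2%, 83.6% and 91.8%, and the kinesin gene Kif26a 57.6%, 78.1% and 87.5%.

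Different exons of 1 gene can hold opposite states in all 3 cell types. Ryr1, the calcium release channel of skeletal muscle, has an exon with 56 members and 63 CpGs in 500 bp at 2.69% for mESCs, 3.74% for C-iPSCs and 4.89% for 4F-iPSCs. Exon 105 of the same gene stood at 73.1%, 85.9% and 90.5%. In Slc4a5, a bicarbonate transporter, exon 11 averaged 3.92%, 3.16% and 4.71% and exon 19 averaged 70.1%, 88.6% and 92.0%. Fat1 departs from the density rule in exon 4, which has 32.5 CpGs in 500 bp and was at 76.8%, 91.2% and 94.8%. Its exon 25, with 27.5 CpGs, was at 13.2%, 24.8% and 34.2%. Of 572 genes with 2 or more exons of at least 5 members, 32 spanned over 50 points between exons in mESCs. The other cell types were not counted.

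**Figure D3:**
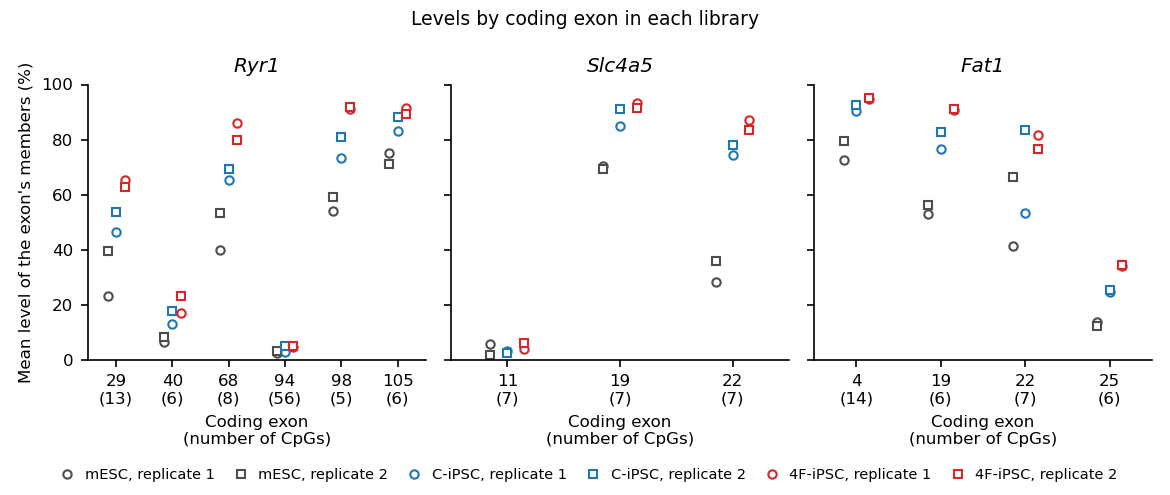
Level (y axis, %) of each coding exon with at least 5 members (x axis, number of members in brackets) in Ryr1, Slc4a5 and Fat1, in each library. Exon 94 of Ryr1 lies between 2.52% and 5.03% in all libraries, while the summed level of exon 105 is 90.5% in 4F-iPSCs.

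C-iPSCs carried more exon methylation than mESCs in almost all genes, by an amount that varies with the gene. The median gene stood 14.7 points higher (quartiles 7.67 and 19.4), and in 1260 of 1478 genes both C-iPSC libraries were above both mESC libraries. That count was not made for other units. Means over all compared autosomal CpGs also did not overlap, at 25.5% and 29.5% in the C-iPSC libraries against 20.2% and 21.9% in the mESC libraries. Genes below 10% numbered 156 in mESCs and 127 in C-iPSCs. Camta1, a calmodulin-binding transcription factor of neurons, is the extreme, with 17.1% and 27.6% for mESCs, 59.3% and 67.5% for C-iPSCs and 90.5% and 91.5% for 4F-iPSCs. Pdlim3, a muscle Z-disc protein, followed with 41.0% and 46.9% in mESCs against 69.3% and 79.95% in C-iPSCs. Pef1, a calcium-binding adaptor, stands out because C-iPSCs matched 4F-iPSCs, at 55.1% and 69.8% beside 63.9% and 59.8%. The axon-guidance gene Sema6b, at 33.8% for mESCs and 64.1% for C-iPSCs, is also among the largest differences.

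Single CpGs gave few strong differences between C-iPSCs and mESCs. With replicates summed, Fisher's exact p below 0.05 and a level difference above about 0.33, 2426 members were higher in C-iPSCs (4.95%, against 2.899% of all compared CpGs) and 10 lower (against 0.0374%). They lie in 1382 genes, mostly 1 or a few per gene. The same rule between the 2 replicates of a cell type, at the lower depth of single libraries, called 1.15% of members in mESCs, 0.998% in C-iPSCs and 0.274% for 4F-iPSCs. Introns over 5 kb from a start had 6.23% higher. Higher and lower members numbered 1409 and 21 without mESC replicate 1, 5086 and 9 without mESC replicate 2, 5532 and 2 without C-iPSC replicate 1, and 1386 and 16 without C-iPSC replicate 2. By limma on gene log2 ratios at an adjusted p below 0.05, 772 genes rose (52.2%, against 21.5% of all units tested) and 1, Zfp30, fell (against 0.188%). Among other units, 41.6% of introns, 38.9% of intergenic units and 25.3% of coding units within 5 kb of a start rose. The share of all units is lowered by 14504 units within 1 kb of a start, of which 3.43% rose. The Camta1 log2 ratio rose by 2.75 (SE 0.40, limma adjusted p 3.3e-09), Pef1 by 1.95 (SE 0.39, adjusted p 8.21e-05) and Pdlim3 by 1.84 (SE 0.41, adjusted p 0.00054). The count of genes that rose depends on single libraries and was 6 without mESC replicate 1, 403 without mESC replicate 2, 1165 when C-iPSC replicate 1 was left out, 290 without C-iPSC replicate 2, 126 without 4F-iPSC replicate 1 and 121 without 4F-iPSC replicate 2. The count that fell was 3 without either C-iPSC replicate (1 or 2) and 0 when any 1 mESC or 4F-iPSC replicate was left out. C-iPSC replicate 2 was above replicate 1 in 1418 of 1478 genes, and mESC replicate 2 above replicate 1 in 1286. These shifts are common to most genes, so the adjusted p of different genes are not independent.

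4F-iPSCs showed the larger gain over mESCs, with a positive difference in 1467 of 1478 genes. The median gene stood 25.7 points above mESCs, and both 4F-iPSC libraries exceeded both mESC libraries in 1410 genes. Other units were not counted this way, and the 4F-iPSC means over all compared autosomal CpGs (32.3% and 33.6%) were also above those of mESCs (20.2% and 21.9%). Where a gene was partly methylated in mESCs it was often close to full in 4F-iPSCs, and the 4F-iPSC replicates lay close together. Socs5, a suppressor of cytokine signalling, stood at 21.3% and 23.9% in mESCs and 81.5% and 80.4% in 4F-iPSCs. Mmrn2, an endothelial matrix gene, stood at 24.8% and 24.5% against 82.0% and 69.3%, and the bradykinin receptor gene Bdkrb2 at 31.3% and 45.9% against 89.2% and 87.9%. Ccs, the copper chaperone of superoxide dismutase, went from 22.6% and 22.3% to 76.2% and 74.2%. In Camta1 the gain sits mainly in exon 9, whose 17 members averaged 16.1% for mESCs, 62.2% for C-iPSCs and 94.4% for 4F-iPSCs.

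**Figure D4:**
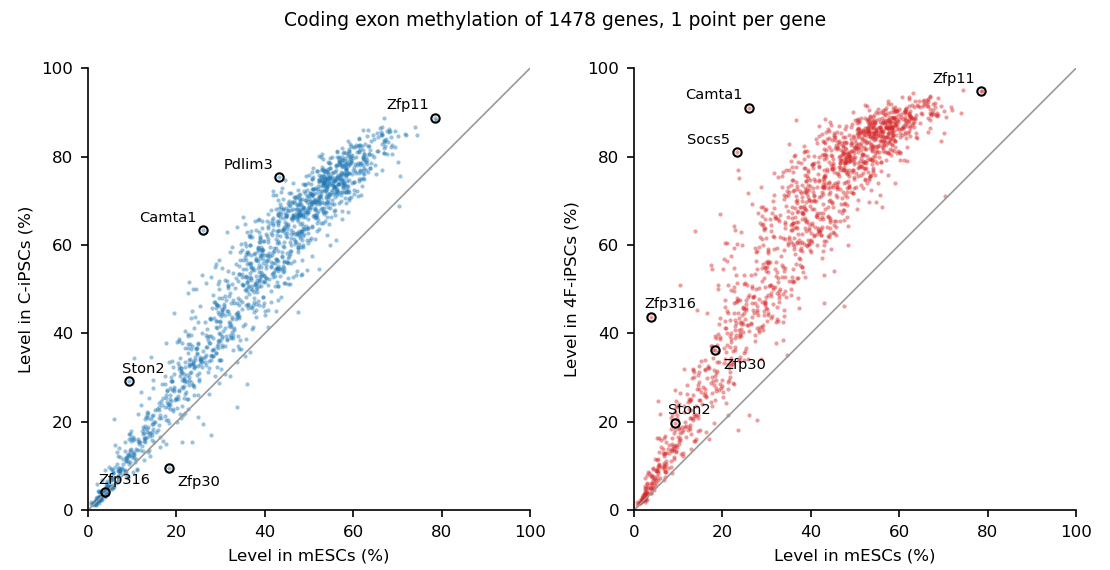
Level in mESCs (x axis, %) against level in C-iPSCs (left) or 4F-iPSCs (right) on the y axis, 1 point for each of 1478 genes with 10 or more members. Points lie above the diagonal at middling levels, with Camta1 at 26.0% in mESCs and 91.1% in 4F-iPSCs.

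The strong calls for 4F-iPSCs cover more than 1 member in 4. Against mESCs, 13907 members were higher (28.4%, against 14.3% of all compared CpGs) and 8 lower (against 0.0333%), in 3845 genes. The median such member stood at 39.2% for mESCs, 65.6% for C-iPSCs and 82.7% for 4F-iPSCs. Lower members numbered 13 without mESC replicate 1, 9 without mESC replicate 2, 12 without 4F-iPSC replicate 1 and 9 without 4F-iPSC replicate 2. Introns had 30.0% higher and coding CpGs near a start 6.61%. By limma 1292 genes rose (87.4%, against 44.3% of all units) and 0 fell (against 0.225%), with 0 lower at an unadjusted p below 0.05 and 1 lower in a fit to mean levels. Among other units, 84.0% of introns, 74.2% of intergenic units and 58.0% of coding units within 5 kb of a start rose, but 10.7% within 1 kb. Camta1 rose by 5.80 in log2 ratio (SE 0.40, limma adjusted p 1.88e-43) and Socs5 by 3.91 (SE 0.39, adjusted p 1.3e-21), values that rest on a spread shared over all units.

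4F-iPSCs and C-iPSCs differ in a smaller set of genes, and there the 4F-iPSCs are the higher. The median gene was 9.90 points higher in 4F-iPSCs, and both 4F-iPSC libraries were above both C-iPSC libraries in 1246 genes. Other units were not counted this way, and means over all compared autosomal CpGs had the same order (32.3% and 33.6% against 25.5% and 29.5%). In a few genes the C-iPSCs lie near mESCs and the 4F-iPSCs far above both. Zfp316, a zinc finger gene, is the clearest and the only one of those named here that is bare outside 4F-iPSCs, with 3.55% and 4.21% for mESCs, 4.81% and 3.26% for C-iPSCs and 35.8% and 50.8% for 4F-iPSCs over 180 CpGs of its last exon. Socs5 stood at 24.0% and 35.0% in C-iPSCs, near its mESC values and far below 4F-iPSCs. Spred2, an inhibitor of Ras signalling, stood at 26.8% and 29.5% for mESCs, 23.2% and 29.4% for C-iPSCs and 60.2% and 58.6% for 4F-iPSCs. Chst13, a chondroitin sulfotransferase gene, lay between, at 13.0% and 14.6%, 23.9% and 27.6%, and 58.0% and 68.5%. The Zfp316 exon lies within 5 kb of a start of the comprehensive annotation, while Socs5, Chst13 and Spred2 have no such start.

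**Figure D5:**
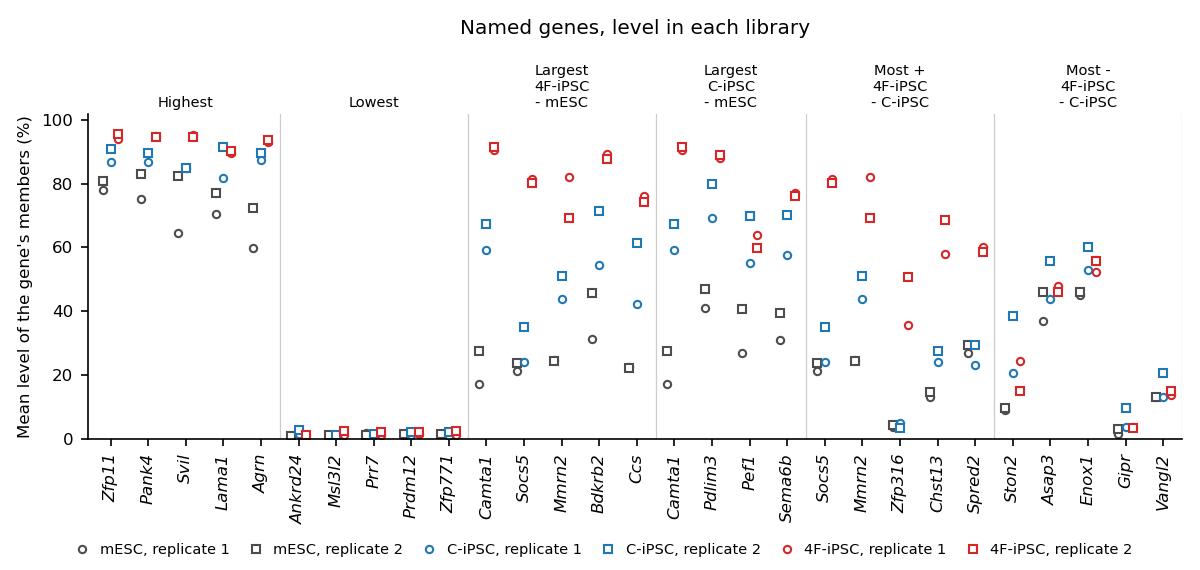
Level (y axis, %) of the members of the named genes (x axis) in each of the 6 libraries, grouped by the reason for naming. Zfp316 has 43.8% for 4F-iPSCs beside 3.83% for mESCs and 4.15% for C-iPSCs.

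The genes in which C-iPSCs were the higher differ little. Ston2, an endocytic adaptor, stood at 8.95% and 9.71% for mESCs, 20.6% and 38.4% for C-iPSCs and 24.3% and 15.1% for 4F-iPSCs, so the iPSC libraries overlap. Asap3, Enox1, Gipr and Vangl2 follow, also with overlapping or close libraries. None of these 5 passed the test between 4F-iPSCs and C-iPSCs, and Ston2 had a limma log2 ratio of -0.68 (SE 0.38, adjusted p 0.256). The Ston2 ratio came to -1.35 when C-iPSC replicate 1 was left out, -1.3e-05 without C-iPSC replicate 2, -1.16 without 4F-iPSC replicate 1 and -0.20 without 4F-iPSC replicate 2, and those of Asap3, Enox1 and Vangl2 turned positive without C-iPSC replicate 2.

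Between 4F-iPSCs and C-iPSCs, 890 members were strongly higher in 4F-iPSCs (1.81%, against 1.35% of all compared CpGs) and 4 lower (against 0.0285%). The 890 lie in 524 genes, and Zfp316 alone supplies 144 of them. The share of 1.81%, in 1 direction, is not far above the 1.15% and 0.998% called in both directions between replicates of mESCs and C-iPSCs. It lies well above the 0.274% called between replicates of 4F-iPSCs. The 4 lower CpGs, named after the values were seen, lie in Cep250, Arnt2, Bsn and Cwc25. The Arnt2 call rests on C-iPSC replicate 1, at 88.9% over 9 reads, beside 14.3% over 7 reads in replicate 2. The Bsn CpG has 3 reads in C-iPSC replicate 2. Higher and lower members numbered 533 and 25 without C-iPSC replicate 1, 2170 and 2 without C-iPSC replicate 2, 1106 and 9 without 4F-iPSC replicate 1, and 1050 and 10 without 4F-iPSC replicate 2. By limma 224 genes rose (15.2%, against 9.76% of all units) and 0 fell (against 0.137%), with 0 lower at an unadjusted p below 0.05 and 1 lower in the fit to mean levels. Among other units, 11.3% of introns and 25.7% of intergenic units rose. A replicate block raised the count of genes that rose, and the fit to mean levels lowered it, as given under the dependence on processing. Zfp316 rose by 4.50 (SE 0.39, limma adjusted p 4.54e-27), Socs5 by 3.20 (SE 0.39, adjusted p 1.45e-13) and Spred2 by 2.20 (SE 0.38, adjusted p 1.96e-06). The gene count was 112 without mESC replicate 1, 110 without mESC replicate 2, 98 when C-iPSC replicate 1 was left out, 1101 without C-iPSC replicate 2, 8 without 4F-iPSC replicate 1 and 10 without 4F-iPSC replicate 2.

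Gene families follow the same order of cell types at different heights. Collagen genes (21 with 10 or more members) had medians of 50.2% for mESCs, 71.1% for C-iPSCs and 81.8% for 4F-iPSCs, and laminins and nidogens (9 genes) 48.2%, 67.6% and 80.7%. They also have fewer CpGs, with medians of 11 for collagens and 14 for laminins and nidogens in 500 bp, against 17 for all 1478 genes. Of the collagens, 17 rose in C-iPSCs and 20 in 4F-iPSCs against mESCs, beside 52.2% and 87.4% of all 1478 genes. The C-iPSC counts of other families were 8 of 9 laminins and nidogens, 18 of 24 myosins and dyneins, 6 of 8 LDL receptor genes, 4 of 6 plexins and semaphorins, 8 of 13 Notch and giant cadherin genes, 6 of 10 spectrins and ankyrins, 6 of 10 channels, 4 of 7 adhesion receptors, 10 of 27 chromatin regulators, 20 of 60 zinc finger genes and 7 of 20 homeobox and lineage factors. Differences between families were not tested, and the C-iPSC calls depend on single libraries as given above. These matrix genes are long and made of many short exons. Chromatin regulators (27 genes) had 49.4%, 64.2% and 78.0%, from Brd1, a histone acetyltransferase partner, at the low end to the demethylase gene Kdm4b at the high end. Notch and giant cadherin genes (13) had 47.0%, 66.99% and 79.4%, and myosins and dyneins (24) 48.1%, 67.9% and 79.6%.

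Transcription factor families lie lower, and their barest genes, Prdm12 and Hoxc9, have 75 and 57 CpGs in 500 bp. The list medians were 25.5 CpGs for homeobox and lineage factors, 22 for zinc finger genes and 23 for adhesion receptors, against 17 for all genes. Homeobox and lineage factors (20 genes) had medians of 19.7% for mESCs, 27.7% for C-iPSCs and 33.6% for 4F-iPSCs, from Hoxc9, a body-axis gene at 2.47% and 1.81% for mESCs, to Sox5, a cartilage factor at 64.1% and 69.0%. Zinc finger genes (60) had 29.1%, 37.7% and 52.2%, and 15 of them rose in 4F-iPSCs against C-iPSCs, beside 15.2% of all genes, a count that depends on single libraries as given above. Adhesion receptors of the GPCR class (7) had 28.4%, 47.0% and 56.5%. Of imprinted genes only Peg10 and Zim1 have 10 members, with Peg10 at 46.4%, 66.7% and 83.6% and Zim1 at 53.4%, 75.4% and 89.2%. Clustered protocadherins had 0 genes with 10 members, and the reprogramming factors Pou5f1, Sox2, Klf4 and Myc had 0 members.

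Genes tied to fibroblast identity (7, among them Col1a1, Fn1 and Fbn1) had medians of 58.6% for mESCs, 76.3% for C-iPSCs and 86.7% for 4F-iPSCs. These list medians were above those of all 1478 genes in every cell type, although Pdgfrb, a growth factor receptor, lay below them. The list also has fewer CpGs, with a median of 13 in 500 bp against 17 for all genes. Of the 7, 5 rose in C-iPSCs and 6 in 4F-iPSCs against mESCs, beside 52.2% and 87.4% of all genes. Without fibroblast libraries in the compared set, whether this level was carried over from the starting cells was not tested.

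Zfp30, a KRAB zinc finger gene, is the 1 gene that fell in C-iPSCs against mESCs, singled out after its values were seen, and it rose in 4F-iPSCs. It stood at 19.2% and 18.1% for mESCs, 7.45% and 12.1% for C-iPSCs and 31.3% and 40.6% for 4F-iPSCs over 27 CpGs, with no overlap between cell types. The log2 ratio of C-iPSCs to mESCs was -1.20 (limma adjusted p 0.0136), and that of 4F-iPSCs to mESCs 1.26 (adjusted p 0.0023). The call against mESCs in C-iPSCs was lost in 4 of the 6 fits that left out a library, although the log2 ratio stayed between -1.16 and -1.23 there, with adjusted p of 0.338 without mESC replicate 1, 0.104 without mESC replicate 2, 0.0730 without 4F-iPSC replicate 1 and 0.0714 without 4F-iPSC replicate 2, and in the fit to mean levels, where it was 0.0628.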

How the data were processed

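The deposited files hold, per library and CpG, read counts and a methylation ratio made by the authors with BSMAP 2.90 (unique pairs, mm10) and MOABS after MspI digestion. The deposited counts, summed over replicates, were used here, and the fraction is methylated reads over all reads. Coding exons and transcription starts came from the basic set of GENCODE M21, and CpG density is the number of CpGs in 500 bp. The members and the gene lists were chosen with earlier results of these data known. Among genes with 10 or more members, those named are the 5 most extreme by mean level and by each difference. The 3 with the widest range between exons in mESCs, and the highest and lowest of each list in mESCs, were added. Not every gene that this rule picks is printed. Cell types were compared by exact permutation of library means, Fisher's exact test per CpG and limma 3.58.1 per gene on the log2 ratio of methylated to unmethylated reads, adjusted over 29844 units genome-wide. Software was Python 3.11.15, numpy 2.4.6, pandas 2.3.3, scipy 1.17.1, numba 0.67.0, matplotlib 3.10.9 and R 4.3.3. Alternatives tried were the read minimum, the distance from starts, soft-masked sequence, the density measure, the size of a strong difference, a quasi-binomial model, a replicate block, mean levels in place of log2 ratios, larger genes only and each library left out. CpGs of the sex chromosomes were left out because a male line carries 1 copy of each.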

Additional observations from a re-analysis of the deposited data

Results flagged for a closer look

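Zfp30 was picked out because its 2 iPSC types moved in opposite directions from mESCs, with both C-iPSC libraries below both mESC libraries and both 4F-iPSC libraries above. The 4F-iPSC level exceeded the C-iPSC level by 26.6 points, with a log2 ratio of 2.46 (SE 0.38, limma adjusted p 2.65e-08). In the log2 fit the lower C-iPSC level passed the test against mESCs only with all libraries or without 1 C-iPSC replicate, and the call was lost when any 1 mESC or 4F-iPSC replicate was left out, with the log2 ratio still between -1.16 and -1.23. The cause of the difference was not tested.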

How the results depend on the processing

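The differences in mean level between cell types kept their direction under every alternative; leaving out 1 library at a time gave 9.51 to 17.2 points for C-iPSC minus mESC, 20.3 to 25.2 for 4F-iPSC minus mESC and 5.56 to 13.2 for 4F-iPSC minus C-iPSC. The comparison with introns turned to 2.27 points within density classes, 2.78 within each number of CpGs and 6.60 within density classes outside soft-masked sequence, and that with intergenic CpGs to 0.0232 within density classes, where density itself is the changed choice; within genes that hold both kinds the intron comparison stayed at -2.38. Leave-one-out ranges were -8.25 to -7.76 for introns, -7.12 to -6.76 for intergenic CpGs and 36.2 to 40.02 for coding CpGs within 5 kb, where the smallest exact p rises to 0.0625 with 5 libraries. The span from sparsest to densest class was 69.8 points in 4F-iPSCs with 200 bp, and 45.3 for mESCs and 65.3 for 4F-iPSCs with observed over expected CpGs; leave-one-out gave 47.5 to 51.6 for mESCs, 59.6 to 69.2 for C-iPSCs and 71.4 for 4F-iPSCs. Strong calls (higher and lower) at a difference of 0.2 were 14240 and 52 (C-iPSC to mESC), 28003 and 32 (4F-iPSC to mESC), and 5801 and 46 (4F-iPSC to C-iPSC); at 0.5 they were 109 and 0, 1986 and 2, and 68 and 1. A minimum of 20 reads left 5 lower members between C-iPSCs and mESCs and 2 between the iPSC types, and the quasi-binomial model 2 and 2, with 453 higher in the last comparison. Leave-one-out gave 1386 to 5532 and 2 to 21, 9885 to 16434 and 9 to 13, and 533 to 2170 and 2 to 25 members. Genes that rose were 199, 474 and 33 of 567 tested with at least 20 CpGs; the same 567 genes gave 233, 458 and 49 in the fit to all units. The fit to mean levels called 2, 1 and 1 genes lower and 142 higher in 4F-iPSCs against C-iPSCs. Leave-one-out gave 6 to 1165 and 0 to 3, 977 to 1350 and 0 to 1, and 8 to 1101 and 0 to 3 genes, with a lone library assumed to vary like the others. Without C-iPSC replicate 2, the 4F-iPSC minus C-iPSC log2 ratio turned to 0.13 for Asap3, 0.052 for Enox1 and 0.10 for Vangl2 (the lowest values, without C-iPSC replicate 1, were -0.68, -0.42 and -0.54). Replicates of different cell types are known to share only a number. Differences of replicate 1 minus replicate 2 correlated at -0.0295, -0.210 and 0.0738 over 43919 CpGs between pairs of cell types. A correlation takes out the mean, so it cannot show a shift of all CpGs together. Replicate 2 averaged 5.02 (mESC), 7.54 (C-iPSC) and 0.506 points (4F-iPSC) above replicate 1 over members. Whether a shift belongs to the replicate number was not tested. A replicate block in limma gave 621 genes higher in 4F-iPSCs against C-iPSCs and 3 lower in C-iPSCs against mESCs, and it moved no other count by over 1.5 times. Crossed replicate numbers gave 13923 higher and 8 lower members in 4F-iPSCs against mESCs. For each other result that moved, the cause was not tested. Comprehensive starts, exact density numbers, soft-masked pairs of sets, density classes and left-out libraries for the comparisons with intergenic and near coding CpGs, left-out libraries for the density spans, the crossed numbers and strong calls by density without Zfp316 were chosen after seeing the data.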

Other observations

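Coding exons of the X chromosome follow the autosomal order of cell types. They have a median of 11 CpGs in 500 bp against 16 for the autosomal members, and autosomal members at 11 to 15 CpGs stand at similar levels. Over 532 CpGs beyond 5 kb from a start, the mESC libraries averaged 46.8% and 52.7%, the C-iPSC libraries 61.4% and 68.3%, and the 4F-iPSC libraries 75.1% and 76.0%, with no overlap between cell types (exact permutation p 0.33 for each pair, the smallest possible).

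Besides Zfp30, 7 genes had both C-iPSC libraries below and both 4F-iPSC libraries above mESCs, listed after their values were seen, and none passed the limma test of C-iPSCs against mESCs: Barhl1, Rin2, Scrt2, Mboat7, Dapk2, Foxo3 and Fam124a. Units of other kinds with this order were not counted. Dapk2, a death-associated kinase gene, stood at 33.9% and 39.4% for mESCs, 27.7% and 29.4% for C-iPSCs and 50.05% and 53.5% for 4F-iPSCs. With replicates summed, its C-iPSC minus mESC difference of -7.52 points was the largest of these 7 genes. The others lay between -1.85 points in Mboat7 and 0.904 in Rin2. Rin2 and Foxo3 have a positive log2 ratio of C-iPSCs to mESCs on summed reads (0.18 and 0.10), against the direction of their mean levels per library.

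At the Pou5f1 promoter, 7 compared CpGs carried 1015 reads for mESCs, 15626 for C-iPSCs and 15795 for 4F-iPSCs, with levels of 10.6%, 7.39% and 16.5%. Both iPSC types come from OG2 fibroblasts and were picked as green fluorescent protein-positive colonies, whereas the mESCs are E14. Whether reads of a reporter add to the iPSC counts and levels was not tested, so these are not levels of the endogenous promoter alone.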
